A study of Mus musculus with 4 samples.

Results

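The receptor subunit genes for GABA and glutamate were examined in single-cell RNA sequencing of the medial ganglionic eminence (MGE), the embryonic progenitor zone that produces cortical interneurons and subcortical projection neurons. The genes were those whose symbols carry the stems of the GABA-A, GABA-B, AMPA, kainate, delta, NMDA and metabotropic glutamate receptors, which gave 49 of the 32285 genes in the feature list. Of these, 19 belonged to the GABA-A receptor, 2 to GABA-B, 4 to AMPA, 5 to kainate, 2 to delta, 7 to NMDA and 8 to the metabotropic glutamate receptors. The other 2 share a stem without encoding a subunit, and neither had enough UMIs to be tested.

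The study asked how the transcription factor St18 bears on the choice between interneuron and projection neuron. It profiled MGE of e14.5 mouse embryos in 4 droplet libraries, 2 from embryos lacking St18 in the whole animal, labelled St18(-/-), and 2 from wildtype embryos. All embryos came from heterozygous parents of a C57/BL6 ICR mix, and MGE was pooled by genotype before dissociation, with the number of embryos per pool not stated. The study calls the libraries of a genotype biological replicates, and a p-value measures the spread between these libraries. The libraries held 70991150 to 92984713 UMIs, of which cells with at least 3000 UMIs and at most 10% mitochondrial UMIs were used. After high doublet scores were left out, 3758 to 6279 cells per library remained, and any pair of libraries shared 4 to 11 cell barcodes.

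Values for single libraries follow the order St18(-/-) replicate 1, St18(-/-) replicate 2, wildtype replicate 1, wildtype replicate 2, unless stated otherwise. The St18 transcript did not mark the genotype: it stood at 25.5, 74.4, 45.1 and 57.1 CPM (UMIs per 1000000 UMIs of that cell group in that library) in neurons, so that the library labelled St18(-/-) replicate 2 had the highest level. By the study's account, St18 RNA is still made in the mutant but is lower in neurons, and on this measure the library labelled St18(-/-) replicate 2 goes against its label. On the following measures, chosen after their values were seen, it sat with the other library of that label. A neuron cluster led by Npy and Rnd2 held 119, 50, 393 and 312 cells, and one led by Neb and Smoc1, with Tsix among its leading genes, held 221, 371, 64 and 36. In other clusters it stood apart from that library. A neuron cluster led by Epha5 and Maf held 515, 71, 364 and 249 cells. A progenitor cluster led by Gm2694 and Hist1h2bl held 277, 33, 241 and 232. The cluster counts therefore do not settle the label. Xist, expressed from the inactive X chromosome of females, was at 584 and 1436 CPM in neurons of the libraries labelled St18(-/-) and at most 0.195 CPM in wildtype, so genotype and sex of the pools cannot be told apart.

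Neurons and progenitors were separated by clusters built without the receptor genes, and counted 10953 and 7032 cells. The neurons include 1007 cells of a cluster led by genes of cell division such as Cenpa and Ccnb2, and 918 and 547 cells of clusters with progenitor markers among their leading genes. The progenitors include 403 cells of a cluster with the neuron marker Gap43 among its leading genes. They also hold clusters of 250 cells led by Maf, 42 led by Snhg11 and 14, all of wildtype replicate 2, led by globin genes. These clusters stayed among the other progenitors set against radial glia-like cells. The 7 neuron markers summed to 5220 to 5990 CPM in neurons and 1260 to 1530 CPM in progenitors. Among neurons, 1727 cells were named MGE interneuron-like (Maf at 697 to 1080 CPM), 414 MGE subcortical projection-like (Zic1 at 700 to 857 CPM, Lhx8 at 552 to 714 CPM) and 1305 LGE-like (Ebf1 at 2018 to 2247 CPM), after the lateral ganglionic eminence next to the MGE. A further cluster of 587 cells met the marker rule for the caudal ganglionic eminence with 4 markers. Its first leading gene was Htr3a, a marker on that list, and Nr2f2 and St18 were also among its leading genes. Nr2f1 was at 354 to 625 CPM and Prox1 at 158 to 253 CPM. The cluster also held the MGE genes Lhx6, at 485 to 711 CPM, and Nkx2-1, at 411 to 477 CPM. The name of that lineage is therefore not used, and these cells are called Nr2f2 neurons. An unnamed cluster of 562 cells also had Nr2f2 among its leading genes. The 12 MGE interneuron markers summed to 5870 to 7430 CPM in interneuron-like cells. In Nr2f2 neurons the sum was 4650 to 5450 CPM, and in all neurons 3040 to 4160 CPM. Single markers varied: Lhx6 was at 320 to 457 CPM in interneuron-like cells and 348.5 to 497 CPM in all neurons. Npy was at 756 to 1108 CPM in interneuron-like cells and 790 to 1253 CPM in Nr2f2 neurons. Among progenitors, 1816 cells were radial glia-like (Fabp7 at 1941 to 2626 CPM) and 1080 basal progenitor-like, and 6863 neurons and 4136 progenitors stayed unnamed.

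GABA-A receptors are chloride channels assembled from alpha, beta and gamma subunits, and in young neurons they can depolarise because the importer NKCC1 (Slc12a2) keeps chloride high until the exporter KCC2 (Slc12a5) takes over. AMPA receptors are assembled from the subunits encoded by Gria1 to Gria4, and those that contain GluA2, the product of Gria2, are poorly permeable to calcium. Migrating MGE interneurons are known to respond to ambient GABA and glutamate before they form synapses.

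Many GABA-A subunit genes lie in clusters, of which 2 are given here from the GENCODE M21 annotation (GRCm38). On chromosome 5, Gabrg1, Gabra2, Gabra4 and Gabrb1 spanned positions 70751047 to 72149037. Gabre, Gabra3 and Gabrq lay on the X chromosome at 72255999 to 72842602, and Gria3 was the remaining X-linked receptor gene. Gabra4 and Gabrb1 share exonic bases on opposite strands, and so do Grin1 and Grin1os, so their counts are taken as uncertain. Other receptor genes overlap genes of the opposite strand too, among them Grin2b, Grm7 and Gabra5. For these, the overlapping genes held at most 60 UMIs each in neurons, against 3224, 405 and 259.

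Promoters of 4 genes are printed because their levels set the cell groups apart in the results that follow: Gria2 and Gria4, which differed in opposite directions between interneuron-like and projection-like cells, Grik3, which differed between radial glia-like cells and other progenitors, and Gabra2, an alpha subunit gene higher in neurons. The sequences are from RefSeq (GRCm38.p6), 5′ to 3′ on the gene's strand, with the CCAAT box (CCAAT) and the GC box (GGGCGG) of either strand in capitals.
Gria2 (chr3:80802786-80803085, minus strand): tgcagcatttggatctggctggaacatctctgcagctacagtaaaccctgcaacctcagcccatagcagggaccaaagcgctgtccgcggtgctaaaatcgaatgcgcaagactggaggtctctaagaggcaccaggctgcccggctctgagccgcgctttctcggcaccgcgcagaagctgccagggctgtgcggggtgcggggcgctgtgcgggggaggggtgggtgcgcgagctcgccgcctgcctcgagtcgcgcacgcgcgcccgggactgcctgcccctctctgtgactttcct
Gria4 (chr9:4796185-4796484, minus strand): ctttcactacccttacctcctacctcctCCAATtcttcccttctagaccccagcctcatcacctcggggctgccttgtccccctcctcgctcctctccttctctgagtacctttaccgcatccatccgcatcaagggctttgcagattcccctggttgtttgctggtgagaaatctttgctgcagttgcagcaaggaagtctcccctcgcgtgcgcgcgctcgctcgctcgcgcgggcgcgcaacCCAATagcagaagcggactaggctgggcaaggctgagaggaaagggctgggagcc
Gabra2 (chr5:71095800-71096099, minus strand): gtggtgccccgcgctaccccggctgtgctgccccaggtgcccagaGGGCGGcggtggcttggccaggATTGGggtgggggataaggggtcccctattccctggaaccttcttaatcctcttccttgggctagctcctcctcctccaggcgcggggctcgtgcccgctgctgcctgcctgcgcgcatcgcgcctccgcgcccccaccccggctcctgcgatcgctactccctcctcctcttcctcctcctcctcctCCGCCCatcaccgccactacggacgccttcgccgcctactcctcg
Grik3 (chr4:125490446-125490745, plus strand): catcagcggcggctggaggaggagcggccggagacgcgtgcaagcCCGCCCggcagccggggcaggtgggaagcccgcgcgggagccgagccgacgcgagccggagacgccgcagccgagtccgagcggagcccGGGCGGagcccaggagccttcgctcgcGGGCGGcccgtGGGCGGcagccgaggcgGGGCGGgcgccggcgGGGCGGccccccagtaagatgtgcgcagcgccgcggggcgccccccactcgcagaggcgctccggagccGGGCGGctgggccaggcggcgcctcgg
RefSeq promoters of 300 bases were present for 34 of the 49 genes, with 42 start sites. The CCAAT box was found in 17 of these 42 and in 37.4% of all 32851 promoters. The GC box was found in 21 of the 42 and in 35.7% of all, and the Grik3 promoter held 7 copies. The Gria2 promoter held none of the 6 motifs searched, which also comprised NRF1 (GCATGCGC), the left part of RE1 (TTCAGCACC), CRE (TGACGTCA) and the TATA box (TATAAA). None of the 42 held CRE, which was in 1.79% of all promoters. Gabrb1 alone held NRF1 (2.71% of all), Grm2 alone held the RE1 part (0.371% of all), and Gabra3, Gabrb2 and Grin3b held the TATA box (13.6% of all). None of the motif sequences contains another, and a match describes the sequence only.

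Most of the receptor genes tested were higher in neurons than in progenitors, in every family. The receptor genes together made up 720 to 1045 CPM in neurons and 250 to 361 CPM in progenitors. Of 36 genes with enough UMIs to be tested, 31 were higher and 2 lower in neurons (edgeR quasi-likelihood test, adjusted p below 0.05), against 40.6% of all 14338 genes tested that were higher and 39.4% that were lower. The median log2 fold change of the 36 was 1.68, and that of all genes was 0.02. The other 13 genes, among them Gabra6, Gabrd, Gabrp, Grin2c and Grm6, had too few UMIs, and 40 of the 49 had at least 1 UMI in the neurons of every library. With the clusters led by genes of cell division or of another class left out, a refit added after seeing the data, 33 of 37 genes tested were higher and 2 lower, against 40.5% and 39.8% of all genes. UMIs count molecules without a correction for gene length, so levels are compared between cell groups and not between genes.

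Gria2 was at 228, 310, 182 and 225 CPM in neurons and at 88.0, 118, 78.7 and 80.8 CPM in progenitors. The groups did not overlap, and the log2 fold change was 1.31 ± 0.04 (SE). Gria4, encoding GluA4, was at 63.0, 80.8, 53.7 and 45.6 CPM in neurons and at 9.35, 12.9, 8.33 and 8.76 CPM in progenitors, with a log2 fold change of 2.59 ± 0.07. Gria1, encoding GluA1, was at 21.2, 29.8, 17.2 and 18.8 CPM in neurons and at 1.42, 1.38, 1.84 and 2.39 CPM in progenitors, with a log2 fold change of 3.68 ± 0.15. The fourth AMPA gene, Gria3, was higher in neurons in 2 libraries and lower in 2, and did not pass the test (log2 fold change -0.19 ± 0.14, adjusted p = 0.203, edgeR quasi-likelihood test). Thus 3 of the 4 AMPA genes were higher in neurons, in all 4 libraries each, against 40.6% of all genes called higher.

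**Figure D1:**
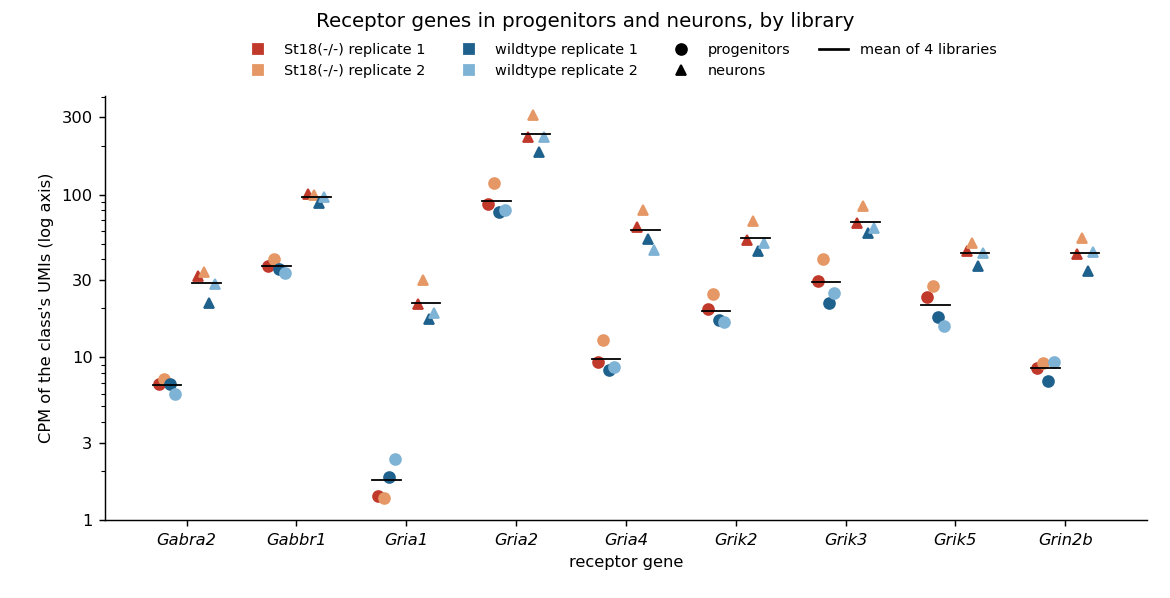
Level of 9 receptor genes whose mean reached 10 CPM in neurons or progenitors, on a log axis in CPM. Circles are progenitors and triangles neurons, colours are the 4 libraries and bars the mean; for each gene all 4 triangles lie above all 4 circles, and St18(-/-) replicate 2 is often the highest.

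Among the GABA-A genes, Gabra2, which encodes an alpha subunit, was at 31.6, 33.7, 21.6 and 28.4 CPM in neurons and at 5.97 to 7.35 CPM in progenitors. The groups did not overlap, and the log2 fold change was 2.05 ± 0.09. Gabrb2, a beta subunit gene, was higher as well (3.08 ± 0.16), as were Gabra5 (2.78 ± 0.25) and Gabrg3 (2.67 ± 0.17). Over the family, 13 of 19 genes were tested, 11 were higher in neurons and 2 were lower, against 40.6% and 39.4% of all genes. The lower ones were Gabre and Gabrq, which encode the epsilon and theta subunits, with log2 fold changes of -1.97 ± 0.43 and -0.82 ± 0.23. They lie in the X-linked cluster on either side of Gabra3, an alpha subunit gene that was higher in neurons (1.48 ± 0.15). Both were low in either class, at a mean of at most 1.5 CPM, and they are named here because they were the exceptions. Gabrq was called lower in all 12 refits under other settings. Gabre was called lower in 8 and had too few UMIs to be tested in the other 4, which were those without either library labelled St18(-/-), with thinned cells and without the library block.

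Gabbr1 and Gabbr2 encode the pair of subunits of the GABA-B receptor, which couples to G proteins. Gabbr1 was at 101, 99.7, 88.6 and 97.3 CPM in neurons and at 36.6, 40.4, 35.2 and 33.1 CPM in progenitors (log2 fold change 1.36 ± 0.04). Gabbr2, needed to bring the receptor to the surface, was also higher in neurons, at a mean of 3.69 ± 0.31 CPM (SD, n = 4) against 1.10 ± 0.20 CPM.

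Kainate receptor genes were detected in both classes. Grik2 was at 52.8, 69.3, 45.1 and 50.5 CPM in neurons and at 16.5 to 24.4 CPM in progenitors. Grik3 was at 67.1, 85.6, 58.1 and 62.5 CPM in neurons and at 21.5 to 40.3 CPM in progenitors. Grik5, whose subunit needs a partner to form a channel, was at 45.0, 50.7, 36.5 and 43.7 CPM in neurons and at 15.5 to 27.6 CPM in progenitors. The log2 fold changes were 1.43 ± 0.05, 1.19 ± 0.05 and 1.0 ± 0.07, and the 4 values in neurons lay above the 4 in progenitors for each gene. Grik1 was also higher and Grik4 was not called.

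Of the NMDA genes, Grin2b, encoding the GluN2B subunit typical of immature receptors, was at 43.0, 54.3, 34.1 and 44.7 CPM in neurons and at 7.15 to 9.32 CPM in progenitors (log2 fold change 2.32 ± 0.07). All 5 tested NMDA genes were higher in neurons, and Grin3a the least (0.27 ± 0.11, adjusted p = 0.0291, edgeR quasi-likelihood test). Grin2b took 92.0 to 93.1% of the UMIs of the 4 Grin2 genes in neurons and 86.1 to 93.2% in progenitors. Of the metabotropic glutamate genes, 4 of 5 tested were higher in neurons, with Grm7 at a log2 fold change of 3.85 ± 0.22 and Grm5 at 2.76 ± 0.14. Both family counts stand against 40.6% of all genes called higher in neurons. The delta receptor gene Grid1 was higher as well (2.40 ± 0.18).

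**Figure D2:**
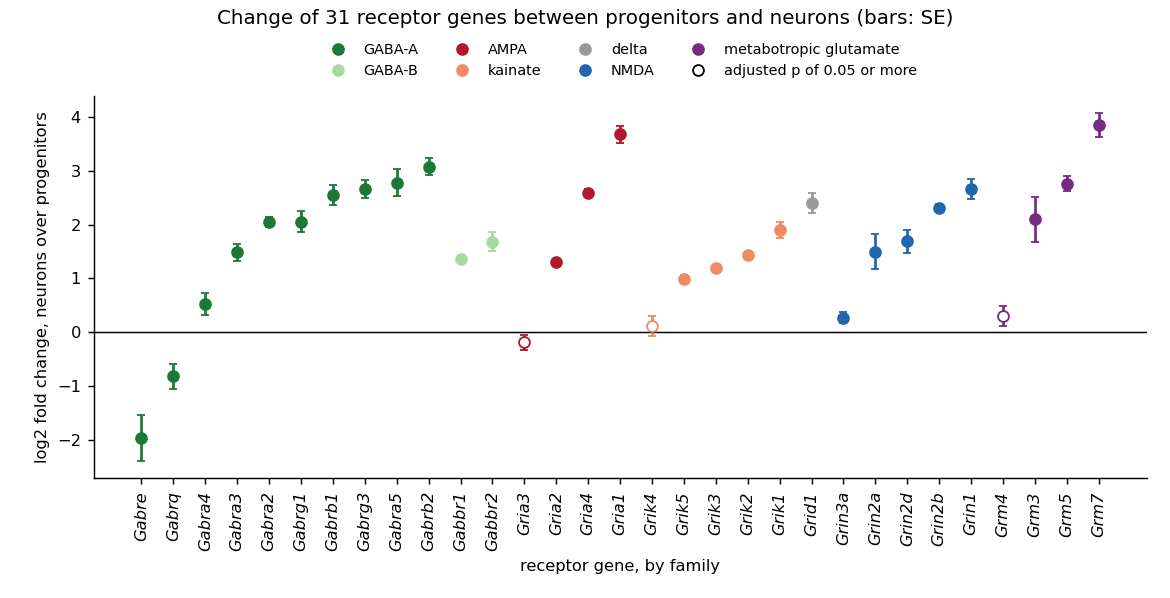
Log2 fold change of 31 of the 36 tested receptor genes, neurons over progenitors, grouped by family, with SE bars and open circles for genes that did not pass the test. Gabre and Gabrq lie below 0, Gria3, Grik4 and Grm4 are open, and the other 26 lie above 0.

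Genes that work with the receptors were mostly higher in neurons too. Over 6 lists of partner, scaffold and transmitter genes, 41 of 52 tested were higher and 6 lower, against 40.6% and 39.4% of all genes. The AMPA receptor partners Cnih2 and Cacng2 had log2 fold changes of 2.96 ± 0.05 and 3.22 ± 0.08, and the kainate partner Neto1 of 2.68 ± 0.06. Among 20 scaffold genes 17 were higher, among them Dlg2 (3.33 ± 0.16) and Shank1 (2.61 ± 0.06), while Homer2 and Homer3 were lower. Slc12a2 was lower in neurons (-1.23 ± 0.06) and Slc12a5 higher (1.24 ± 0.12). The GABA-synthesising enzymes Gad1 and Gad2 were at 2.24 ± 0.05 and 2.16 ± 0.04.

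For Gria2 and Gabbr1, the share of cells with a UMI was also higher in neurons. With each cell thinned to 3000 UMIs, Gria2 was seen in 30.7 to 39.3% of neurons and 17 to 23.7% of progenitors per library, and in 1.31% of erythroid cells, which should lack it. Without thinning the pooled shares were 47.6%, 43.2% and 6.54%, at median depths of 5974, 9475 and 11387 UMIs. Gabbr1 was seen in 22.3 to 26.6% of neurons and 9.75 to 10.4% of progenitors after thinning, and its unthinned pooled shares were 42.8% of neurons, 28.9% of progenitors and 2.61% of erythroid cells. Droplets under 100 UMIs, which hold free RNA, had Gria2 at 113 to 140 CPM, and erythroid cells at 4.43 to 10.3 CPM. The classes were drawn from other genes of the same cells, so the tests describe these classes and their p-values are not independent of the clustering.

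Within neurons, MGE interneuron-like cells had more Gria1 and Gria4 and less Gria2 than the other neurons. Gria4 was at 133, 181, 123 and 127 CPM in MGE interneuron-like cells and at 48.4, 64.8, 40.5 and 35.9 CPM in the other neurons (log2 fold change 1.61 ± 0.06). Gria1 was at 42, 83.6, 50.04 and 44.9 CPM against 16.9, 21.2, 10.9 and 15.7 CPM (1.80 ± 0.10). Gria2 was at 98.2, 166, 98.5 and 101 CPM against 254, 332, 198 and 240 CPM (-1.10 ± 0.05). In each of these genes the 4 interneuron-like values lay apart from the 4 values of the other neurons. The other neurons included an unnamed cluster of 874 cells with the interneuron markers Npy and Ackr3 among its leading genes. They also included an unnamed cluster of 692 cells with Maf among its leading genes.

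Gria1 and Gria4 together took 63.4, 61.1, 63.7 and 62.5% of the UMIs of the 4 AMPA genes in MGE interneuron-like cells. The share was 36 to 44.5% in Nr2f2 neurons, 12.7 to 19.3% in MGE subcortical projection-like cells and 11.8 to 15.4% in LGE-like cells. In radial glia-like cells it was 6.04 to 8.09% and in basal progenitor-like cells 6.57 to 9.94%. The interneuron-like range lay above all others and the Nr2f2 range above the remaining 4, while projection-like and LGE-like ranges overlapped, as did those of the progenitor groups. Each share rested on 96 to 1600 AMPA UMIs. A share depends on how well each gene is captured, so only its difference between groups is read.

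**Figure D3:**
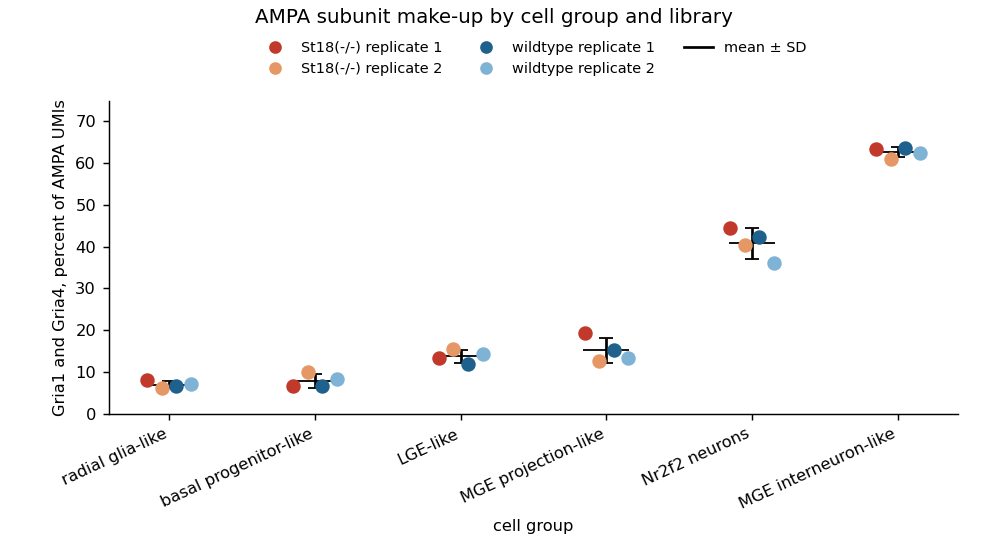
Share of Gria1 and Gria4 among the UMIs of Gria1 to Gria4, in percent, for 6 cell groups. Points are the 4 libraries and bars the mean with SD; MGE interneuron-like cells lie at 61.1 to 63.7% and the 4 groups other than these and Nr2f2 neurons at most at 19.3%.

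Across the receptor genes, 7 of 32 tested were higher and 17 lower in MGE interneuron-like cells than in the other neurons, against 13.8% higher and 16.7% lower of all 12816 genes. Grik2 was among the higher genes (0.64 ± 0.07). Gabrb2 (-1.73 ± 0.23) and Grin2b (-1.60 ± 0.11) were among the lower. Grin2b was at 11.5, 23.7, 16.3 and 10.2 CPM in interneuron-like cells and at 49.5, 59.1, 37.5 and 48.8 CPM in the other neurons. The median depth was 5485 UMIs per interneuron-like cell, near the 5974 of all neurons. The class joined 2 clusters. The one with Gria1 among its leading genes held 169 of 684, 237 of 308, 87 of 451 and 35 of 284 cells, so St18(-/-) replicate 2, which had the highest Gria1, drew most of its cells from it. Without this library 4 receptor genes were higher and 17 lower, against 12.2% and 14.3% of all genes. Without St18(-/-) replicate 1, 4 were higher and 13 lower, against 10.9% and 12%. Scaled to library totals, 31.4% of all called genes were higher, against 45.3% with TMM.

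MGE subcortical projection-like cells had more of many receptor genes: 21 of 33 tested genes were higher and 2 lower than in the other neurons, against 16.4% and 17.2% of all 12824 genes. Gabrb2 was at 54.3, 73.9, 40.0 and 47.9 CPM and at 6.18 to 9.55 CPM in the other neurons (2.79 ± 0.18). The 4 values lay above those of the other neurons. Gabra5 was higher (1.52 ± 0.36) and Gabrg3 was not called, and in the chromosome 5 cluster Gabrg1 and Gabra2 were higher while Gabra4 and Gabrb1 were not called. The 7 neuron markers summed to 6370 to 7090 CPM in these cells and 5220 to 5990 CPM in all neurons, and the 10 progenitor markers to 303 to 741 and 1150 to 1510 CPM. The part of these markers in the result was not tested. Projection-like cells formed a single cluster with Slc10a4 and Zic4 among its leading genes, and a tie to the globus pallidus was not tested. The other neurons included unnamed clusters of 869, 461 and 393 cells with Lhx8, Zic1 or Gbx1 among their leading genes.

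Several glutamate receptor genes were higher in projection-like cells too. Grin3a, encoding an NMDA subunit that lowers calcium entry, was at 33.9, 52.3, 32.7 and 41.9 CPM and at 5.55 to 7.93 CPM in the other neurons (2.57 ± 0.20). Grm5, a metabotropic receptor gene, was higher by 2.41 ± 0.19. Gria4 was lower (-1.20 ± 0.14), at 32.8, 35.7, 34.5 and 14.0 CPM.

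Set directly against each other, interneuron-like and projection-like cells differed in 23 of 26 tested receptor genes, with 3 higher and 20 lower in interneuron-like cells, against 20.9% and 22.4% of all 9621 genes. Gria4 (2.39 ± 0.14) and Gria1 (1.28 ± 0.18) were higher. Gabrb2 was at 1.36 to 4.07 CPM in interneuron-like cells and at 40.0 to 73.9 CPM in projection-like cells. Gabrg1 was at no more than 0.73 CPM in interneuron-like cells and at 3.39 to 23.6 CPM in projection-like cells, the lowest values being those of the libraries labelled St18(-/-). Projection-like cells held 550591 to 1001685 UMIs of all genes per library, so these lowest values rested on few UMIs. Genotypes were not compared within this cell group. Grik2 did not pass the test, with a log2 difference of 0.07 ± 0.12. Projection-like cells numbered 75 to 150 per library. The progenitor markers summed to 1200 to 1450 CPM in interneuron-like and 303 to 741 CPM in projection-like cells, and the neuron markers to 5290 to 5970 and 6370 to 7090 CPM, and their part in these differences was not tested.

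LGE-like neurons, the neighbouring lineage of striatal projection neurons, had 20 of 35 tested genes higher and 5 lower than the other neurons, against 19.6% and 18.4% of all 12887 genes. Without St18(-/-) replicate 1, 13 were higher and 4 lower, against 15% and 14%. Grin2b was at 93.7, 108, 81.3 and 80.5 CPM against 34.6, 44.0, 27.1 and 40.9 CPM in the other neurons (1.34 ± 0.08). Grid1 (1.52 ± 0.19), Gria3 (0.95 ± 0.20) and Grik1 (0.94 ± 0.19) were higher as well. Grik3 was lower, at 30.6, 40.2, 26.4 and 17.6 CPM against 73.1, 94.2, 62.8 and 67.2 CPM (-1.32 ± 0.09), and Gria4 (-1.07 ± 0.11) and Grik2 (-0.74 ± 0.08) were lower too. The neuron markers summed to 6120 to 7740 CPM here, above the 5220 to 5990 CPM of all neurons, and the progenitor markers to 561 to 1220 CPM, and their part in the counts was not tested.

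Nr2f2 neurons shared the high Gria4 of the interneuron-like cells, at 144, 151, 109 and 98.6 CPM against 58.0, 74.8, 51.1 and 42.2 CPM in the other neurons (1.15 ± 0.08). Gria1 was at 13.3 to 34.8 CPM in Nr2f2 neurons and did not pass the test (0.14 ± 0.15). Of 33 tested genes, 3 were higher and 14 lower, against 7.36% and 10.1% of all 12827 genes. Gabrb2 was lower (-1.77 ± 0.34), and Grin2b, Grik2 and Gria2 were lower by a log2 fold change of at most 0.43 in size. In 30 refits of the genes named in this group, the call was lost in 9, all of them for Grin2b, Grik2 or Gria2. Without the library labelled St18(-/-) replicate 2, 3 genes were higher and 6 lower, against 5.42% and 7.76% of all genes. The neuron markers summed to 4250 to 4930 CPM, below the 5220 to 5990 CPM of all neurons, and the progenitor markers to 1250 to 1490 CPM, and their part in the counts was not tested.

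**Figure D4:**
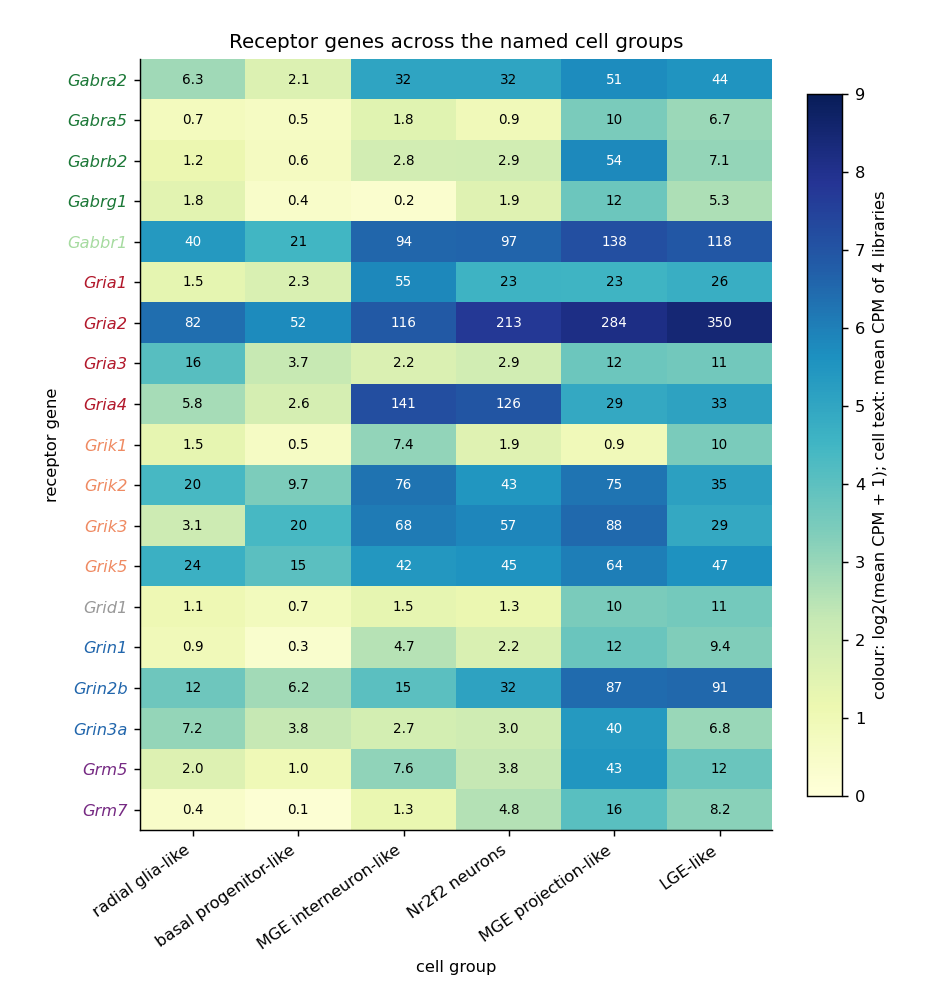
Mean level in CPM over the 4 libraries for 19 receptor genes that reach 10 CPM in any of 6 cell groups, with colour on a log2(CPM + 1) scale and gene names coloured by receptor family. Gria4 is darkest in MGE interneuron-like cells and Nr2f2 neurons, and Gabrb2, Grin3a and Grm5 in MGE subcortical projection-like cells (labelled MGE projection-like).

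Within progenitors, a kainate and an AMPA gene differed in opposite directions. Grik3 was at 3.06, 3.36, 3.65 and 2.41 CPM in radial glia-like cells, the stem cells that line the ventricle, and at 42, 54.2, 29.4 and 32.9 CPM in the other progenitors (-3.78 ± 0.13). Gria3 was at 17.7, 22.6, 10.3 and 13.6 CPM in radial glia-like cells and at 4.31, 2.74, 2.36 and 3.25 CPM in the other progenitors (2.24 ± 0.16). Both genes kept apart in all 4 libraries. In basal progenitor-like cells Grik3 was already at 15.8 to 24.0 CPM, and Grik3 took 55.7 to 76.8% of the UMIs of Grik1 to Grik3 there against 11.2 to 15.4% in radial glia-like cells.

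Of 28 tested receptor genes, 7 were higher and 6 lower in radial glia-like cells, against 32.7% and 31.7% of all 13064 genes. Grin2b was higher (0.57 ± 0.14), while Gria4 was lower (-1.04 ± 0.14). Gabre and Gabrq, the genes called lower in neurons, were higher in radial glia-like cells than in other progenitors (1.16 ± 0.40 and 1.36 ± 0.32). Gabre was higher in all 4 libraries and its groups did not overlap, while Gabrq was higher in 3 of 4 and its groups overlapped. The 7 neuron markers summed to 431 to 543 CPM in radial glia-like cells and 1260 to 1530 CPM in all progenitors, and their part in these differences was not tested.

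Between genotypes, no receptor gene passed the threshold in neurons or in progenitors. In neurons, 0 of 35 tested receptor genes were called (edgeR quasi-likelihood test), against 0.0658% of all 13688 genes, and 2 of 35 had an unadjusted p below 0.05, against 17% of all genes. In progenitors, 0 of 31 were called, against 0.0741% of all 13502 genes, and 5 of 31 had an unadjusted p below 0.05, against 16.8%. DESeq2 called 0 in both classes, but gave no adjusted p for 26 and 29 of these genes. The median log2 difference of the receptor genes, St18(-/-) minus wildtype, was 0.00 in neurons and 0.14 in progenitors, and that of all genes was -0.0034 and -0.0032.

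Gria4 had the smallest unadjusted p of the receptor genes in neurons, at 63.0 and 80.8 CPM in the libraries labelled St18(-/-) and 53.7 and 45.6 CPM in wildtype. These CPM are scaled to library totals, and with TMM the log2 difference was 0.38 ± 0.14 (adjusted p = 0.239, edgeR quasi-likelihood test). The interneuron-like cells, where Gria4 is high, made up 18.8 and 13.6% of neurons in St18(-/-) and 16.9 and 11.9% in wildtype. Nr2f2 neurons, where Gria4 is also high, made up 5.19 and 6.94% in St18(-/-) and 4.05 and 5.58% in wildtype. The unnamed cluster led by Neb and Smoc1, with Maf among its leading genes, held 221 and 371 cells against 64 and 36. How these numbers bear on the Gria4 difference was not tested. With equal numbers of cells of each cluster drawn from every library, which kept fewer cells, the Gria4 difference was 0.17 (adjusted p = 0.551, edgeR quasi-likelihood test). In progenitors, Grik5 was at 23.6 and 27.6 CPM against 17.8 and 15.5 CPM (0.42 ± 0.12, adjusted p = 0.181, edgeR quasi-likelihood test). Grik3 was at 29.3 and 40.3 CPM against 21.5 and 24.9 CPM (0.39 ± 0.14, adjusted p = 0.243, edgeR quasi-likelihood test).

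These calls depended on single libraries and on the scaling. Without St18(-/-) replicate 1, 5 receptor genes were called in neurons (Gria1, Gria2, Gria4, Grik2 and Grik3) and 4 in progenitors (Gria2, Grik2, Grik3 and Grik5), all higher in the remaining library labelled St18(-/-). These were 5 of 36 and 4 of 33 tested, against 22.4% and 32.8% of all genes in the same refits. Without the library labelled St18(-/-) replicate 2, none was called in neurons and Grik5 in progenitors, against 4.2% and 14% of all genes. With library totals in place of TMM, which moved the median of all genes to 0.15 in neurons and 0.19 in progenitors, Gria4 and Grik5 were called, 1 gene in each class against 3.98% and 3.36% of all genes. That scaling put 78.7% and 77.3% of all called genes higher in St18(-/-), against 44.4% and 20% of only 9 and 10 genes with TMM, and 13.8% and 9.27% of the 305 and 302 called by DESeq2. The X-linked genes Gabra3, Gria3, Gabre and Gabrq were not called in either class where tested.

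**Figure D5:**
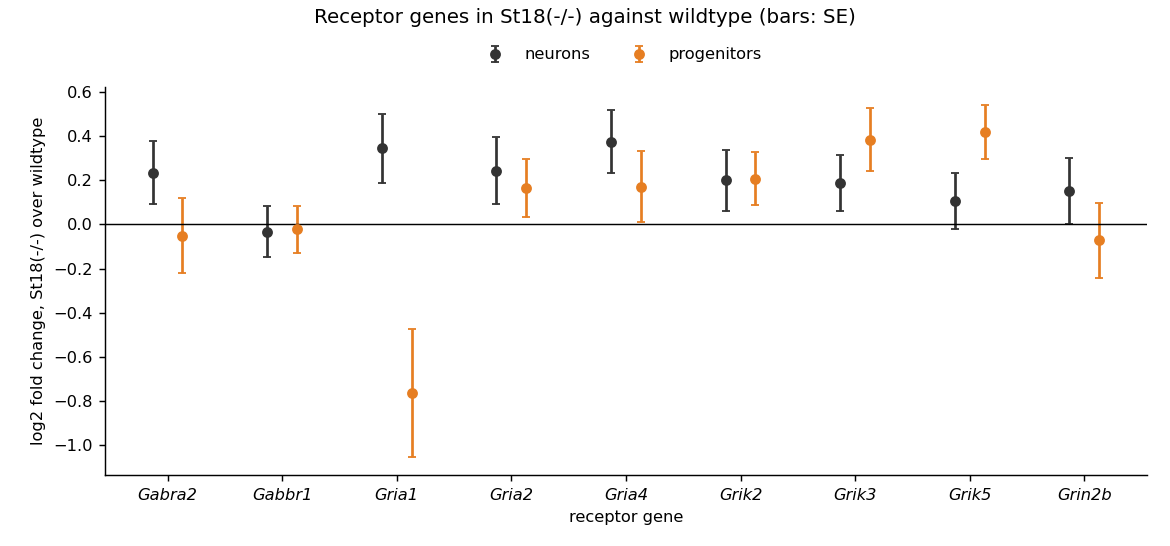
Log2 difference of St18(-/-) from wildtype, with SE bars, for the 9 receptor genes of the plot of levels, in neurons and in progenitors. All but Gria1 in progenitors lie between -0.07 and 0.42, and no point passed the test.

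The change from progenitors to neurons was then compared between genotypes. A difference was called for 1 of 36 receptor genes, Gria1, against 0.914% of all 14338 genes. Its change was larger in the libraries labelled St18(-/-), by 1.13 ± 0.28 on the log2 scale (adjusted p = 0.0326, edgeR quasi-likelihood test). Gria1 stood at 21.2 and 29.8 CPM in neurons and 1.42 and 1.38 CPM in progenitors of St18(-/-), and at 17.2 and 18.8 CPM and 1.84 and 2.39 CPM in wildtype. The progenitor values rested on 27 to 37 UMIs per library. Without the library labelled St18(-/-) replicate 2 or without wildtype replicate 2 the difference was not called. The interneuron-like cluster with Gria1 among its leading genes held 169 and 237 cells of the libraries labelled St18(-/-) and 87 and 35 of wildtype. With equal numbers of cells of each cluster drawn from every library, a refit added after seeing the data, the difference was 1.28 and was not called (adjusted p = 0.149, edgeR quasi-likelihood test).

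Differences between genotypes and between cell groups were set side by side for the AMPA genes. Gria2 differed by 0.24 ± 0.15 between genotypes in neurons, and by 1.22 ± 0.08 between projection-like and interneuron-like cells, in size. The share of Gria1 and Gria4 in interneuron-like cells was 63.4 and 61.1% in St18(-/-) and 63.7 and 62.5% in wildtype. None of 52 and 49 tested genes of the partner, scaffold and transmitter lists was called between genotypes in neurons and in progenitors, and 8 and 12 of them (15.4% and 24.5%) had an unadjusted p below 0.05, against 17% and 16.8% of all genes. With equal numbers of cells of each cluster, no receptor gene was called of 32 tested in neurons and 23 in progenitors. The share of all genes called in these refits was 0.541% and 0.831%.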

How the data were processed

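MGE of e14.5 embryos was profiled in 2 St18(-/-) and 2 wildtype libraries. The values are raw UMI counts, which the authors deposited as 1 matrix a library with all barcodes included. Per the submitters' processing notes these came from Cell Ranger 5.0.1 on GRCm38, while the file headers name an earlier major version.

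Barcodes were kept from 3000 UMIs and 200 genes upward, with up to 10% of UMIs mitochondrial. Scrublet's own threshold marked at most 0.0887% of cells and had not worked, so the highest doublet scores were left out at 0.8% per 1000 cells (120 to 352 cells per library). Cells were clustered in Seurat 5.3.0 (R 4.3.3) on 2000 variable genes less the receptor genes, 49 principal components and a resolution of 1.4, first all cells, then neurons and progenitors apart. Clusters were named from listed markers, of which at least 3 had to be detected. UMI counts were summed per library and class or type. edgeR 4.0.16 (TMM, filterByExpr, quasi-likelihood F-test, two-sided, Benjamini-Hochberg over all genes tested, adjusted p below 0.05) was run on all genes, with the library as a block between cell groups and without covariates between genotypes. Both classes of a library come from the same pool, which makes the pairs. DESeq2 was version 1.42.0. The edgeR tests were checked on simulated data. Alternatives were DESeq2, library totals, no filter, no block, leaving out each library or doubted clusters, thinned cells, equal cluster numbers and kept doublets.

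Values were given for receptor genes whose mean reached 10 CPM in neurons or progenitors. Between genotypes, up to 5 genes per direction with an unadjusted p below 0.05 and at least 10 CPM were named, and for each cell group up to 4 called genes per direction with the largest fold, on the same side in all libraries and with at least 10 CPM. Other genes were named after their values were seen. The receptor genes and the lists were chosen with earlier results of these data known. Counting intervals cover counting error only. The 153 erythroid, 97 microglial and 32 oligodendrocyte precursor cells entered no comparison, and the 57 pallial-like cells entered only as part of the neurons. Globin-led cells of wildtype replicate 2 stayed among the progenitors, where the 8 erythroid markers summed to 523, 62.7, 73.3 and 1310 CPM. The globin-led cluster held no cells of St18(-/-) replicate 1. In basal progenitor-like cells the erythroid markers summed to 2170, 73.0, 78.8 and 70.7 CPM. Some of the 49 receptor genes are counted in the totals but not reported here by name.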

Additional observations from a re-analysis of the deposited data

Results flagged for a closer look

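Gria1 is listed because its change between progenitors and neurons differed between the genotypes in the test of that difference, by 1.13 on the log2 scale (SE 0.28), larger in the libraries labelled St18(-/-). It was the only one of 36 receptor genes called, against 0.914% of all 14338 genes. Without the library labelled St18(-/-) replicate 2, without wildtype replicate 2 or with equal numbers of cells of each cluster it was not called. The last of these kept fewer cells, 35 per library of the interneuron-like cluster with Gria1 among its leading genes. It gave a difference of 1.28 (adjusted p = 0.149, edgeR quasi-likelihood test).

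Other values came from small cell groups that were not compared on their own. The 57 neurons named pallial excitatory-like, 4 to 21 per library, are part of the neuron class and had, within every library, higher levels than both classes and the 6 cell groups of the report for the genes given next. The mean of the 4 libraries was 589 CPM for Gria2, 150.2 CPM for Gabbr1, 137 CPM for Grin2b, 33.6 CPM for Gabrg3 and 24.5 CPM for Grin2a. Gria2 rested on 489 UMIs in all and Grin2a on 10. In the 32 oligodendrocyte precursor-like cells, Gria3 was at a mean of 43.6 CPM, from 16 UMIs, above both classes and those 6 groups within every library. These groups were not tested, because a library entered a test of a cell group only with at least 20 of its cells.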

How the results depend on the processing

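Over 380 refits of the genes named by rule, 362 kept their direction and side of the threshold, 12 were no longer called, 6 became called and 0 reversed. Neurons against progenitors: 31 genes were higher in the full set and 29 to 31 when 1 library was left out; 2 were lower and 1 to 3 with a library left out, 1 with cells thinned to 3000 UMIs and 1 with no replicate block (the library), since Gabre then had too few UMIs to be tested. Between genotypes, with 0 called, leaving out a library gave 0 to 5 higher in neurons and 0 to 4 in progenitors, where the lone sample of an arm is assumed to vary like the others; library totals in place of TMM gave 1 in each. Over all genes, 9 were called in neurons and 10 in progenitors, against 305 and 302 by DESeq2, 545 and 453 with library totals, 3111 and 4488 without St18(-/-) replicate 1, and 579 and 1903 without St18(-/-) replicate 2. For the difference of changes, DESeq2 called 45 genes against 131, 0 of them receptor genes, and gave Gria1 no adjusted p; leaving out a library gave 0 to 1 higher and 0 to 1 lower, and equal numbers of cells of each cluster, added after seeing the data, gave 54 genes, 0 of them receptor genes. In MGE interneuron-like cells DESeq2 gave 4 higher, and leaving out a library 4 to 5 higher. Over all genes, DESeq2 called 988 higher there, against 1774 in the main fit. In LGE-like cells leaving out a library gave 13 to 19 higher. In Nr2f2 neurons DESeq2 gave 6 lower, and leaving out a library 6 to 14 lower. Over all genes, DESeq2 called 685 lower in Nr2f2 neurons, against 1293 in the main fit. The cause of the other moves was not tested. The genotype comparison has no paired fit: No paired analysis was possible because replicate numbers follow only the order of the samples. Leaving out clusters led by genes of another class, added after seeing the data, changed no call of a named gene. Scaling to library totals moved the split of called genes between higher and lower from 45.3% to 31.4% higher in interneuron-like cells, from 44.4% to 78.7% between genotypes in neurons and from 20% to 77.3% in progenitors. DESeq2 put 13.8% and 9.27% of its calls between genotypes higher in neurons and in progenitors. Depth limits genes near 1 CPM, whose sums rest on few UMIs.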

Other observations

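Values outside the comparisons came from small cell classes. In 97 microglia, Gabbr1 was at 8.32 to 36.5 CPM and Gria2 at 0 to 42.1 CPM over the 4 libraries, from 30 and 22 UMIs. In the 32 oligodendrocyte precursor-like cells, Gria2 was at a mean of 370.2 CPM from 152 UMIs, and Gabrg1 at 30.8 CPM from 16 UMIs. By library, Gabrg1 was at 51.3, 59.8, 11.9 and 0 CPM.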
